A study of Homo sapiens with 6 samples.

Results

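The ADAM, ADAMTS and ADAMTS-like genes were followed in A375 cells, a human melanoma line, with and without the kinase RIPK4. The genes were chosen by name: every symbol made of ADAM, ADAMTS or ADAMTSL and a number was taken, which gave 35 of the 20851 genes listed in the deposited count table (14 ADAM, 17 ADAMTS and 4 ADAMTS-like genes). A375RIPK4.KO cells carried a CRISPR/Cas9 knockout of RIPK4 made with a lentiviral guide. A375neg cells, labelled as the GFP control, carried a nontargeting guide according to the methods of the study. Each group had 3 libraries, described by the submitters as biological replicates. The knockout cells were 1 clone, so the loss of RIPK4 and any other property of this clone cannot be told apart.

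ADAM proteins are membrane-anchored proteins with a metalloprotease and a disintegrin domain. The catalytically active ones work mainly as sheddases, which cut growth factors, adhesion molecules and receptors from the cell surface, whereas others lack the zinc-binding catalytic site and act in adhesion. ADAMTS proteases are secreted, carry thrombospondin repeats and cut matrix proteins such as versican, procollagens and COMP. ADAMTS-like proteins share these repeats but have no protease domain, and several of them bind fibrillin microfibrils. In melanoma these families are studied for the release of growth factors and for remodelling of the matrix around the tumour.

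The libraries held 21882863 to 26694140 gene counts, so that 3 counts, the limit that a count of 0 allows, stood for 0.112 to 0.137 CPM, a count scaled to library size (counting error only). RIPK4 itself (chr21:41739373-41767052, GRCh38) had 319, 368 and 404 counts in A375neg and 42, 51 and 61 in A375RIPK4.KO, a log2 fold change of -2.69 (SE 0.17, edgeR adjusted p 1.01e-05). Replicate 2 of A375RIPK4.KO stood apart in its long genes. The median log2 deviation from the mean of all libraries was 0.22 lower in its genes with 6500 to 10000 bp of exon than in those with 1500 to 2500 bp, whereas in the other 5 libraries the long genes lay above the short ones by 0.01 to 0.09. The melanocytic marker SOX10 had 7448 to 10056 counts in every library, while PMEL (3 to 22) and TYRP1 (1 to 8) were low. Of 10 melanocytic markers, 7 were listed, 5 were tested and 2 (S100B and S100A1) fell. By the same rule, given below, 9.04% of all genes tested were called. The summed normalised counts of the melanocytic list were 9506 to 10269 in A375neg and 8185 to 8595 in A375RIPK4.KO. Of 5 leukocyte markers 3 were listed, CD68 at 1033 to 1251 counts in every library, PTPRC at 0 to 3 and ITGAM at 0 to 5, with summed normalised counts of 1033 to 1190 in A375neg and 1162 to 1260 in A375RIPK4.KO. All 4 endothelial markers were listed, and KDR rose (279 to 374 against 391 to 463 counts), PECAM1 fell (21 to 24 against 4 to 5) and CDH5 was at 0 to 14, with sums of 319 to 426 and 445 to 496. Of 4 keratinocyte markers 3 were listed, and KRT14 fell (461 to 607 against 121 to 158 counts), KRT10 was at 1138 to 1420 and KRT5 at 2 to 11, with sums of 1755 to 1845 and 1308 to 1623. Of 5 fibroblast markers 4 were listed and none was called, with sums of 121 to 150.0 and 102 to 137. The part of these markers in the results given here was not tested.

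Enough counts for a test were found for 26 of the 35 genes. A gene was called changed at an adjusted p under 0.05 (edgeR's quasi-likelihood test, adjusted over all 14443 genes tested) and a fold change of at least 1.5. By this rule 8 of the 26 changed, 3 higher and 5 lower in A375RIPK4.KO, which is 30.8% against 9.04% of all genes tested. Over all genes, 4.39% were called higher and 4.65% lower. The adjusted p alone was passed by 12 of the 26, against 16.6% of all genes. ADAM19, ADAM23, ADAM8, ADAMTS12 and ADAMTSL4 fell, and ADAMTS8, ADAMTS6 and ADAM11 rose. With a limit of 2-fold, ADAM11 and ADAMTS6 were no longer called. The fall of ADAM19 rested on the most counts by far, and the calls for ADAM8 and ADAM11 were the least firm, since each was lost when single libraries were left out. The 9 genes that were not tested had at most 17 counts in any library. Control and knockout libraries were fully separated for 16 of the 26 genes, or 61.5%, against 36.5% of all genes tested. The median log2 fold change of the 26 genes was 0.04 and that of all genes tested was -0.0047.

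**Figure D1:**
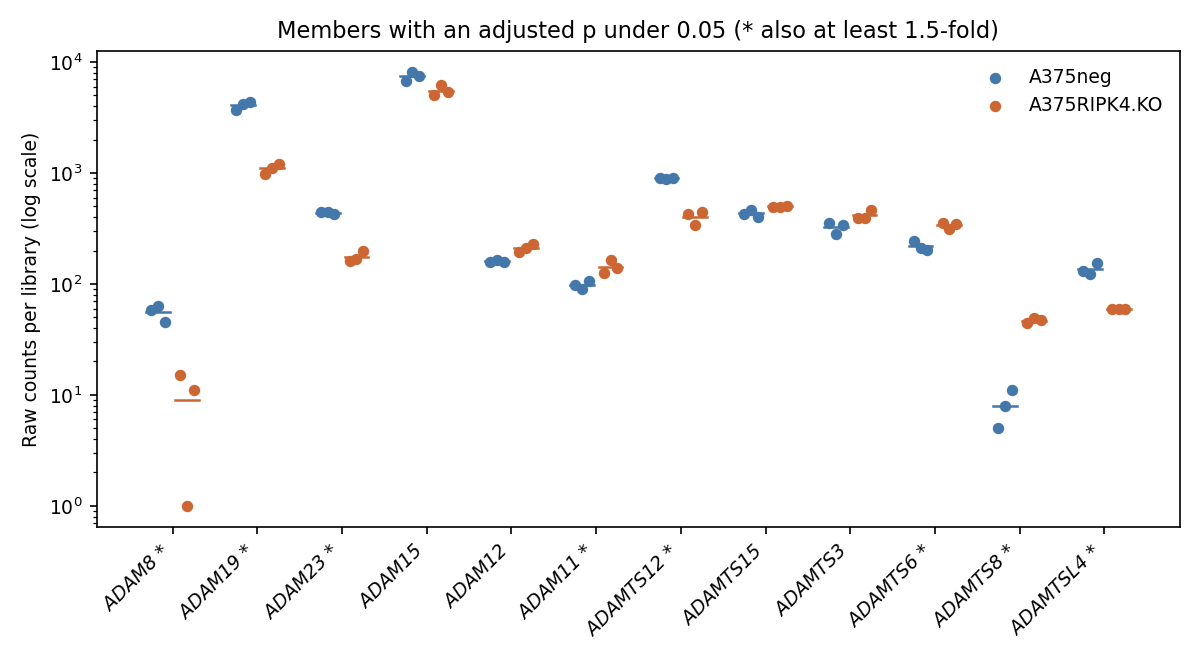
Raw counts per library (vertical axis, log scale) of the 12 members with an adjusted p under 0.05, with stars for the 8 that also changed by at least 1.5-fold; each group has 1 point per library and a line at its mean. The groups do not overlap for any of the 12, and replicate 2 of A375RIPK4.KO is the lowest point for ADAM8, with 1 count.

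Chromosome 5 carried 6 of the genes, 4 of them tested, and 3 of those changed: ADAM19 and ADAMTS12 fell and ADAMTS6 rose. Over all genes tested, 9.04% were called. The chromosome was singled out with the calls known, and its share was not tested. The promoters of these 3 genes are shown as a description. The 3 genes lie far apart on the chromosome, and any part of the promoters in their directions was not tested. Each is the 250 bases before the RefSeq start of the gene (GRCh38.p14, minus strand, read 5′ to 3′), at chr5:157575776-157576025 for ADAM19, chr5:33891991-33892240 for ADAMTS12 and chr5:65481921-65482170 for ADAMTS6. Capitals mark the letters of a motif that was searched for on both strands.
ADAM19: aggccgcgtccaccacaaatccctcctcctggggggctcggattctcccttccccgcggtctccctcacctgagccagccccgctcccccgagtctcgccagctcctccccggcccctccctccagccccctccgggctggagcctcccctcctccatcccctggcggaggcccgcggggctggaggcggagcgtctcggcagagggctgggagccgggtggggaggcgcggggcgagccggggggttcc
ADAMTS12: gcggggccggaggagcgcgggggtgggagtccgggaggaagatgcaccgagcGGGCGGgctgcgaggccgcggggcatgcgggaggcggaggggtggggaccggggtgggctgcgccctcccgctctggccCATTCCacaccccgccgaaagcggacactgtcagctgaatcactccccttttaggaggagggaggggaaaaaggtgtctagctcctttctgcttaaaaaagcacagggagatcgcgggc
ADAMTS6: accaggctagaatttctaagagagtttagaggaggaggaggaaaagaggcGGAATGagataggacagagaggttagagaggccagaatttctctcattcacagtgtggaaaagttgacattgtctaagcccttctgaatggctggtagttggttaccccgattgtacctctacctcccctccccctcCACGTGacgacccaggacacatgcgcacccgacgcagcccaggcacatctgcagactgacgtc
The motifs searched were AP-1 (TGACTCA), CRE (TGACGTCA), the E-box CACGTG, the TEAD motif GGAATG and the GC box GGGCGG. ADAM19 held none of these in the window. ADAMTS12 held a GC box 198 to 193 bases and a TEAD motif 119 to 114 bases before the start, the latter on the other strand, so that it is printed as its reverse complement. ADAMTS6 held a TEAD motif 200 to 195 bases and an E-box 63 to 58 bases before the start. A promoter was on hand for 24 of the 35 genes. Of these 24, none held AP-1 or CRE, 3 held the E-box, 4 the TEAD motif and 19 the GC box. Over all 27305 promoters the shares were 4.16% for AP-1, 1.77% for CRE, 6.49% for the E-box, 11.9% for the TEAD motif and 42.3% for the GC box. These are matches of letters and do not show binding.

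Levels of different genes were compared as RPKM (counts scaled to exon length and library size), given as mean ± SD of 3 libraries. The length was the union of all annotated exons of a gene, so the order of genes can depend on this choice. ADAM genes were the most abundant class, with a summed level of 92.1 to 98.5 RPKM in A375neg libraries and 69.7 to 74.6 in A375RIPK4.KO. The ADAMTS class summed to 10.4 to 11.6 and 11.4 to 12.6 RPKM, and the ADAMTS-like class to 2.20 to 2.64 and 1.63 to 1.93 RPKM. The ranges of the groups did not overlap for the ADAM and ADAMTS-like sums, and did so for the ADAMTS sum. Per length, ADAM15 was the most abundant gene of all 35, followed in A375neg by ADAM19 (20.6 ± 1.03) and ADAM9 (13.01 ± 1.03), which did not overlap. By normalised counts, without the length, ADAM10 (2893 ± 170) lay above ADAM9 (2206 ± 175) in A375neg. In A375RIPK4.KO the level of ADAM9 (14.05 ± 0.880) was above that of ADAM19 (6.10 ± 0.411), which lay beside ADAM10 (6.77 ± 0.819) within their spread. ADAM19 made up 21.1% to 22.04% of the summed ADAM level in A375neg and 8.15% to 9.03% in A375RIPK4.KO.

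**Figure D2:**
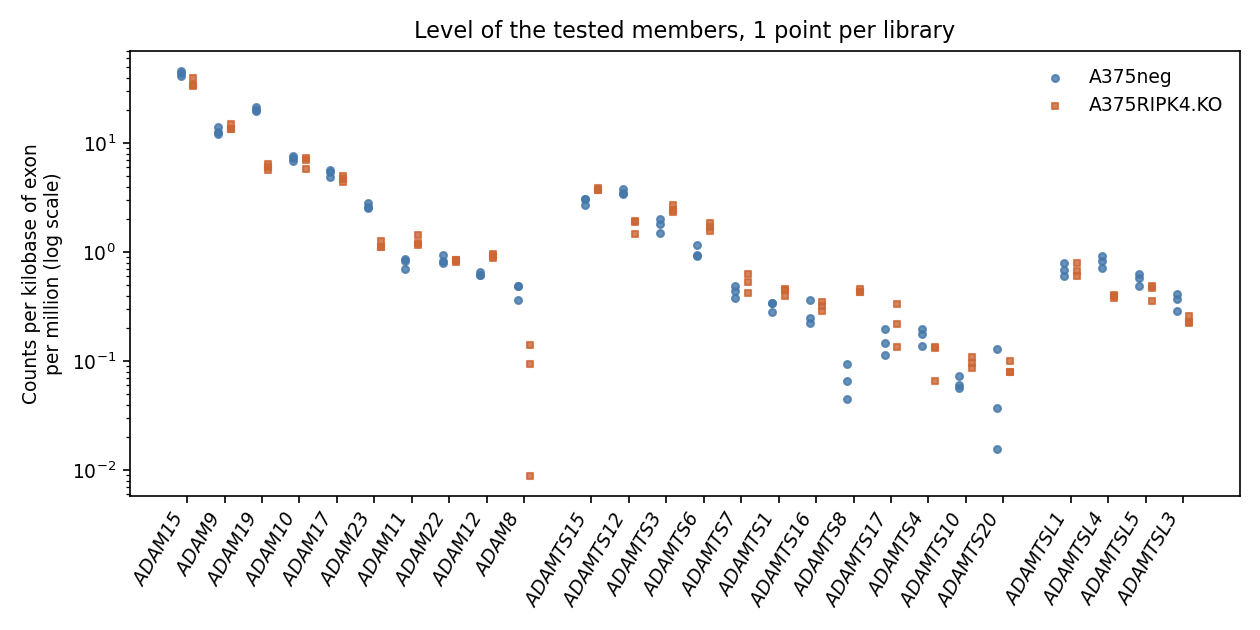
Level of each of the 26 tested genes in RPKM on a log scale, with 1 point per library (circles A375neg, squares A375RIPK4.KO), grouped by class and ordered by mean level. ADAM15, ADAM9 and ADAM19 lead the ADAM genes, and ADAM19 drops from 20.6 to 6.10 RPKM.

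Among the 14 ADAM genes, 10 were tested, 1 rose and 3 fell, and their median log2 fold change was -0.14. The share called over all genes tested was 9.04%. ADAM19, a sheddase known to cut neuregulin, had 3721, 4175 and 4330 counts in A375neg and 985, 1100 and 1215 in A375RIPK4.KO. All control libraries lay far above all knockout libraries. Its normalised count fell from 3890.1 ± 196 to 1152 ± 77.7 (SD, n = 3), a 3.38-fold lower level with a log2 fold change of -1.75 (SE 0.07, edgeR adjusted p 9.94e-07). It stayed between -1.80 and -1.71 with any 1 library left out. ADAM19 lies at chr5:157477304-157575775.

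ADAM8, a sheddase best known from leukocytes (chr10:133262423-133276868), was low in A375neg, with 58, 63 and 45 counts, and lower in A375RIPK4.KO, with 15, 1 and 11. The groups did not overlap, but the 3 knockout libraries differed widely among themselves. The log2 fold change was -2.46 (SE 0.56, edgeR adjusted p 0.0167). ADAM8 lost its call without replicate 3 of A375RIPK4.KO (adjusted p 0.0530), without replicate 1 of A375neg (0.0572) and without replicate 2 of A375neg (0.0647), and the log2 fold change ranged from -3.08 to -1.93. The leukocyte markers PTPRC (0 to 3 counts) and ITGAM (0 to 5) were near 0 and CD68 had 1033 to 1251 counts in every library, and their part in the result was not tested.

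ADAM15 and ADAM12 passed the adjusted p but fell short of the fold limit. ADAM15, a widely expressed sheddase (chr1:155051316-155062775), had 6707, 8071 and 7516 counts in A375neg and 5083, 6198 and 5343 in A375RIPK4.KO. Every knockout library was below every control library, and the normalised count was 1.22-fold lower (log2 fold change -0.29, SE 0.08, edgeR adjusted p 0.0406). The adjusted p ranged from 0.00108 to 0.149 with single libraries left out. ADAM12, which is known to cut IGF-binding proteins (chr10:126012391-126388477), had 158, 164 and 159 counts in A375neg and 196, 212 and 229 in A375RIPK4.KO. All knockout libraries were above all control libraries, and the normalised count was 1.45-fold higher (log2 fold change 0.54, SE 0.13, edgeR adjusted p 0.0209). With single libraries left out the edgeR adjusted p of ADAM12 ranged from 0.0296 to 0.0782.

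ADAM10 and ADAM17, the main sheddases of Notch and of EGF-family ligands, did not pass the test. ADAM10 (chr15:58588809-58749707) had 2924, 2942 and 3214 counts in A375neg and 2573, 2219 and 2887 in A375RIPK4.KO, with a log2 fold change of -0.11 (SE 0.09, edgeR adjusted p 0.484). ADAM17 (chr2:9488486-9555830) had 1513, 1394 and 1512 counts against 1140, 1126 and 1315, with a log2 fold change of -0.17 (SE 0.08, edgeR adjusted p 0.195). After normalisation the groups overlapped for both genes. ADAM9, another broadly expressed sheddase, had 2064, 2338 and 2533 counts in A375neg and 2095, 2207 and 2520 in A375RIPK4.KO (log2 fold change 0.11, SE 0.08, edgeR adjusted p 0.378). Of the 7 tested ADAM genes with a catalytic site, 2 fell and none rose, against 4.65% lower and 4.39% higher over all genes tested.

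ADAM11, ADAM22, ADAM23 and ADAM32 lack the catalytic site. ADAM11, ADAM22 and ADAM23 are known from the nervous system, where ADAM22 and ADAM23 bind LGI proteins at synapses. ADAM23 (chr2:206443532-206621127) had 446, 449 and 423 counts in A375neg and 160, 167 and 198 in A375RIPK4.KO. The knockout libraries were all below the control libraries, and the normalised count fell from 420.2 ± 23.2 to 183 ± 15.1 (log2 fold change -1.20, SE 0.12, edgeR adjusted p 0.00015). ADAM23 kept a log2 fold change of -1.26 to -1.15 with single libraries left out. ADAM11 (chr17:44758988-44781846) had 98, 90 and 106 counts in A375neg and 126, 163 and 139 in A375RIPK4.KO. It was higher in all knockout libraries, by 1.59-fold (log2 fold change 0.67, SE 0.17, edgeR adjusted p 0.0288). ADAM11 lost its call without replicate 2 (adjusted p 0.0539) or 3 (0.0624) of A375RIPK4.KO and without replicate 1 (0.0673), 2 (0.107) or 3 (0.0587) of A375neg. ADAM22 had 238 to 297 counts in A375neg and 232 to 251 in A375RIPK4.KO, with a log2 fold change of -0.03 (SE 0.12, edgeR adjusted p 0.893).

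The 4 ADAM genes that were not tested were ADAM20 (1 to 8 counts), ADAM21 (0 to 6), ADAM28 (3 to 13) and ADAM32 (0 to 2). ADAM28 had 6, 3 and 4 counts in A375neg and 12, 9 and 13 in A375RIPK4.KO, which did not overlap. Without the filter on low counts its edgeR adjusted p was 0.138.

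**Figure D3:**
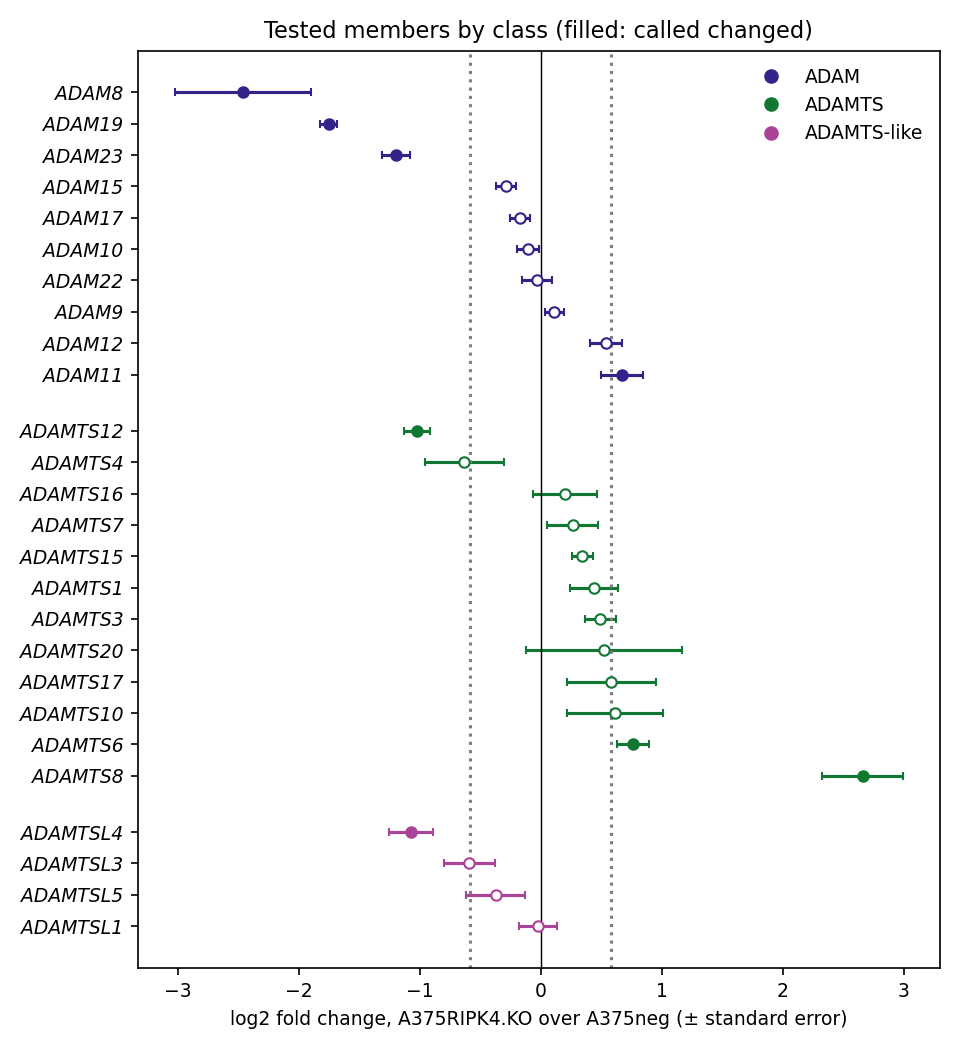
Log2 fold change of A375RIPK4.KO over A375neg for the 26 tested genes (horizontal axis, bars ± standard error), coloured by class, with filled points for genes called changed and dotted lines at the 1.5-fold limits. Most ADAMTS points lie right of 0, all 4 ADAMTS-like points lie left of it, and ADAM8 and ADAMTS20 have the widest bars.

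Of the 17 ADAMTS genes, 12 were tested, 2 rose and 1 fell, against 9.04% of all genes tested that were called. The log2 fold change was above 0 for 10 of the 12, with a median of 0.47, whereas it was above 0 for 3 of the 10 tested ADAM genes and 0 of the 4 ADAMTS-like genes. This difference between the classes is a description and was not tested. ADAMTS12 and ADAMTS4 were the 2 ADAMTS genes with a value below 0.

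ADAMTS12, which cuts COMP (chr5:33523535-33891990), had 905, 890 and 893 counts in A375neg and 423, 339 and 444 in A375RIPK4.KO. All knockout libraries were below all control libraries. The normalised count fell from 857 ± 43.5 to 422 ± 59.4, a 2.03-fold lower level (log2 fold change -1.02, SE 0.11, edgeR adjusted p 0.000256; -1.09 to -0.91 with single libraries left out). In A375neg it was the most abundant ADAMTS gene per length (3.57 ± 0.181 RPKM), ahead of ADAMTS15 (2.97 ± 0.200), and in A375RIPK4.KO it lay below ADAMTS15 (3.77 ± 0.125) and ADAMTS3 (2.50 ± 0.179) at 1.76 ± 0.248 RPKM. Its share of the summed ADAMTS level was 32.4% to 33.0% in A375neg and 12.99% to 15.3% in A375RIPK4.KO. ADAMTS7, the other COMP-cleaving member, had 77 to 109 counts over all libraries and a log2 fold change of 0.26 (SE 0.21, edgeR adjusted p 0.449).

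ADAMTS8 (chr11:130404923-130428609), one of the proteases grouped with those that cut versican and aggrecan, showed the largest rise of the 26 genes. It had 5, 8 and 11 counts in A375neg and 44, 49 and 47 in A375RIPK4.KO, so it was near the limit of detection in the controls and even across the knockout libraries. The normalised count rose from 7.60 ± 2.72 to 49.0 ± 1.90 (log2 fold change 2.66, SE 0.33, edgeR adjusted p 0.000662; 2.45 to 2.95 with single libraries left out). Even so, ADAMTS8 made up only 3.43% to 4.06% of the summed ADAMTS level in A375RIPK4.KO. ADAMTS15 lies 20.035 kb from it on chromosome 11 (chr11:130448645-130476645) and belongs to the same group of proteases. ADAMTS15 had 431, 464 and 402 counts in A375neg and 498, 494 and 506 in A375RIPK4.KO. The groups did not overlap, but the 1.27-fold difference was under the fold limit (log2 fold change 0.34, SE 0.09, edgeR adjusted p 0.0291). With single libraries left out the edgeR adjusted p of ADAMTS15 ranged from 0.0292 to 0.105.

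The other tested members of this group were ADAMTS1, ADAMTS4 and ADAMTS20, and none passed the test. ADAMTS1 had 53 to 62 counts in A375neg and 63 to 77 in A375RIPK4.KO (log2 fold change 0.44, SE 0.20, edgeR adjusted p 0.176). ADAMTS4 had 35 to 54 against 16 to 33 counts (log2 fold change -0.63, SE 0.33, edgeR adjusted p 0.235), with no overlap of the groups for either gene. ADAMTS20 had 23, 3 and 7 counts in A375neg and 13, 17 and 14 in A375RIPK4.KO, and its log2 fold change ran from 0.06 to 1.69 with single libraries left out. The spread within A375neg was wider than the difference between the groups. ADAMTS5 and ADAMTS9 were not tested, with 0 to 2 and 0 to 13 counts.

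ADAMTS6 (chr5:65148738-65481920), a protease linked to fibrillin microfibrils, had 243, 213 and 203 counts in A375neg and 354, 316 and 350 in A375RIPK4.KO. It was higher in every knockout library, and the normalised count rose from 211 ± 28.2 to 357 ± 28.6, by 1.70-fold (log2 fold change 0.76, SE 0.13, edgeR adjusted p 0.00447; 0.70 to 0.88 with single libraries left out). ADAMTS3, a procollagen N-propeptidase that also cuts VEGF-C (chr4:72280969-72569221), had 353, 284 and 340 counts in A375neg and 397, 394 and 467 in A375RIPK4.KO. The groups did not overlap, and the 1.41-fold difference was under the fold limit (log2 fold change 0.49, SE 0.13, edgeR adjusted p 0.0293). Without replicate 1 of A375neg, ADAMTS3 passed it, at a log2 fold change of 0.59. With single libraries left out its log2 fold change ranged from 0.38 to 0.59 and its edgeR adjusted p from 0.0193 to 0.104. ADAMTS2, the other procollagen N-propeptidase, had 1, 9 and 3 counts in both groups.

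ADAMTS10, ADAMTS16 and ADAMTS17 had 8 to 62 counts and log2 fold changes of 0.61, 0.20 and 0.58, and none passed the test. ADAMTS18 was not tested. It had 3, 3 and 2 counts in A375neg and 4, 17 and 9 in A375RIPK4.KO, so that all control libraries were at or under the detection limit of 3 counts. The ratio of its counts was 4.12 (95% counting interval 1.85 to 10.4). This interval covers counting error only and leaves out the spread between libraries. Without the filter the edgeR adjusted p of ADAMTS18 was 0.122. ADAMTS19 had 0, 3 and 0 counts against 4, 3 and 4.

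The 4 ADAMTS-like genes were all tested. All of them had a log2 fold change below 0, with a median of -0.48. By the call 1 of them fell, against 4.65% of all genes tested. ADAMTSL4, which binds fibrillin microfibrils (chr1:150549408-150560937), had 132, 124 and 155 counts in A375neg and 59, 60 and 59 in A375RIPK4.KO. The knockout libraries were nearly equal and lay below every control library. The normalised count fell from 131 ± 16.4 to 62.3 ± 2.35 (log2 fold change -1.07, SE 0.18, edgeR adjusted p 0.00366; -1.16 to -0.98 with single libraries left out). An antisense gene, ADAMTSL4-AS1, is counted beside it, with 23, 18 and 12 counts in A375neg and 6, 4 and 10 in A375RIPK4.KO, and the strand setting of the counting is not given in the sources used here. ADAMTSL3 had 89, 75 and 104 counts against 57, 52 and 53, without overlap, but did not pass the test (log2 fold change -0.59, SE 0.21, edgeR adjusted p 0.0956).

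ADAMTSL1 had 231, 220 and 284 counts in A375neg and 242, 193 and 222 in A375RIPK4.KO (log2 fold change -0.02, SE 0.16, edgeR adjusted p 0.937), and the sign of this value turned with single libraries left out and with the correction for gene length. ADAMTSL5 had 56, 56 and 46 counts against 38, 42 and 31, with overlapping normalised counts (log2 fold change -0.37, SE 0.25, edgeR adjusted p 0.355). Per length, ADAMTSL4 had been the most abundant of the class in A375neg (0.830 ± 0.104 RPKM), beside ADAMTSL1 (0.699 ± 0.0997) within their spread. ADAMTSL1 led in A375RIPK4.KO (0.688 ± 0.0951 against 0.395 ± 0.0149 RPKM for ADAMTSL4). By normalised counts, without the length, ADAMTSL1 (234 ± 33.4) was above ADAMTSL4 (131 ± 16.4) in A375neg as well.

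**Figure D4:**
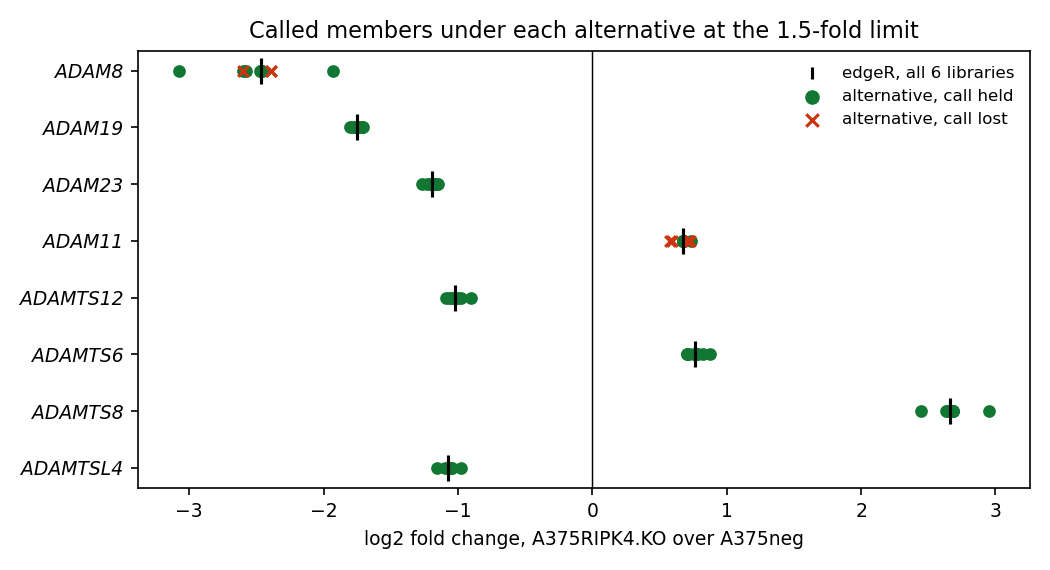
Log2 fold change of A375RIPK4.KO over A375neg (horizontal axis) for the 8 changed members, with a black bar for edgeR on all 6 libraries, a circle for each alternative fit or left-out library under which the call held at the 1.5-fold limit and a cross for each under which it was lost. Crosses appear for ADAM8 (3) and ADAM11 (5), and ADAM8 spreads from -3.08 to -1.93.

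Genes that mature, inhibit or serve as targets of these proteases were taken from lists written from general knowledge. The lists were chosen with earlier results of these data known, and each is given by its counts. Of all genes tested, 9.04% were called changed, 4.39% higher and 4.65% lower. The iRhoms RHBDF1 and RHBDF2 and their partner FRMD8 bring ADAM17 to the cell surface, and of the 3, 1 fell. RHBDF1 had 452, 508 and 496 counts in A375neg and 243, 216 and 247 in A375RIPK4.KO (log2 fold change -0.91, SE 0.10, edgeR adjusted p 0.00039). RHBDF2 was at 0.04 on the log2 scale (edgeR adjusted p 0.869). FRMD8 was lower by less than the fold limit (log2 fold change -0.37, edgeR adjusted p 0.0353). The median of the list was -0.37.

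TspanC8 tetraspanins bring ADAM10 out of the endoplasmic reticulum. Of the 6, 5 were tested and 1 rose, against 4.39% of all genes tested, with a median log2 fold change of 0.46. TSPAN5 had 604, 664 and 670 counts in A375neg and 812, 940 and 977 in A375RIPK4.KO (log2 fold change 0.63, SE 0.07, edgeR adjusted p 0.000491). TSPAN14 was 1.38-fold higher, short of the fold limit (edgeR adjusted p 0.00141).

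Proprotein convertases remove the prodomain of many, but not all, of these proteases. Of 4 tested, 1 rose and 1 fell, against 9.04% of all genes tested that were called. FURIN, a widely expressed one, had 3631, 4124 and 4158 counts in A375neg and 3240, 3835 and 3684 in A375RIPK4.KO (log2 fold change -0.01, SE 0.07, edgeR adjusted p 0.928). PCSK6 had 3, 3 and 1 counts in A375neg and 58, 65 and 62 in A375RIPK4.KO. It was thus at or under the detection limit in every control library (edgeR adjusted p 4.78e-05). The ratio of counts was 29.03 with a 95% counting interval of 13.8 to 73.2, which leaves out the spread between libraries. PCSK5 had 110, 153 and 139 counts against 62, 73 and 90 (log2 fold change -0.70, SE 0.19, edgeR adjusted p 0.0386). This last call was lost without the low-count filter (adjusted p 0.0574) and in 4 of the 6 fits with 1 library left out.

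Among the 5 tested inhibitors, 1 fell and 1 rose, against 9.04% of all genes tested that were called. TIMP3, the matrix-bound inhibitor of several ADAM and ADAMTS proteases, had 23801, 25524 and 26080 counts in A375neg and 9405, 10688 and 10927 in A375RIPK4.KO. All knockout libraries were far below the controls (log2 fold change -1.15, SE 0.06, edgeR adjusted p 5.05e-06), and the level per length fell from 213 ± 5.59 to 96.0 ± 4.29 RPKM. A2M, a plasma-type protease inhibitor, had 120, 161 and 159 counts in A375neg and 301, 346 and 433 in A375RIPK4.KO (log2 fold change 1.43, SE 0.16, edgeR adjusted p 0.000294). TIMP1 (-0.24, edgeR adjusted p 0.0934) and TIMP2 (-0.08, edgeR adjusted p 0.428) did not pass on the log2 scale. POFUT2 and B3GLCT, which add sugars to thrombospondin repeats, were both tested, and neither passed.

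**Figure D5:**
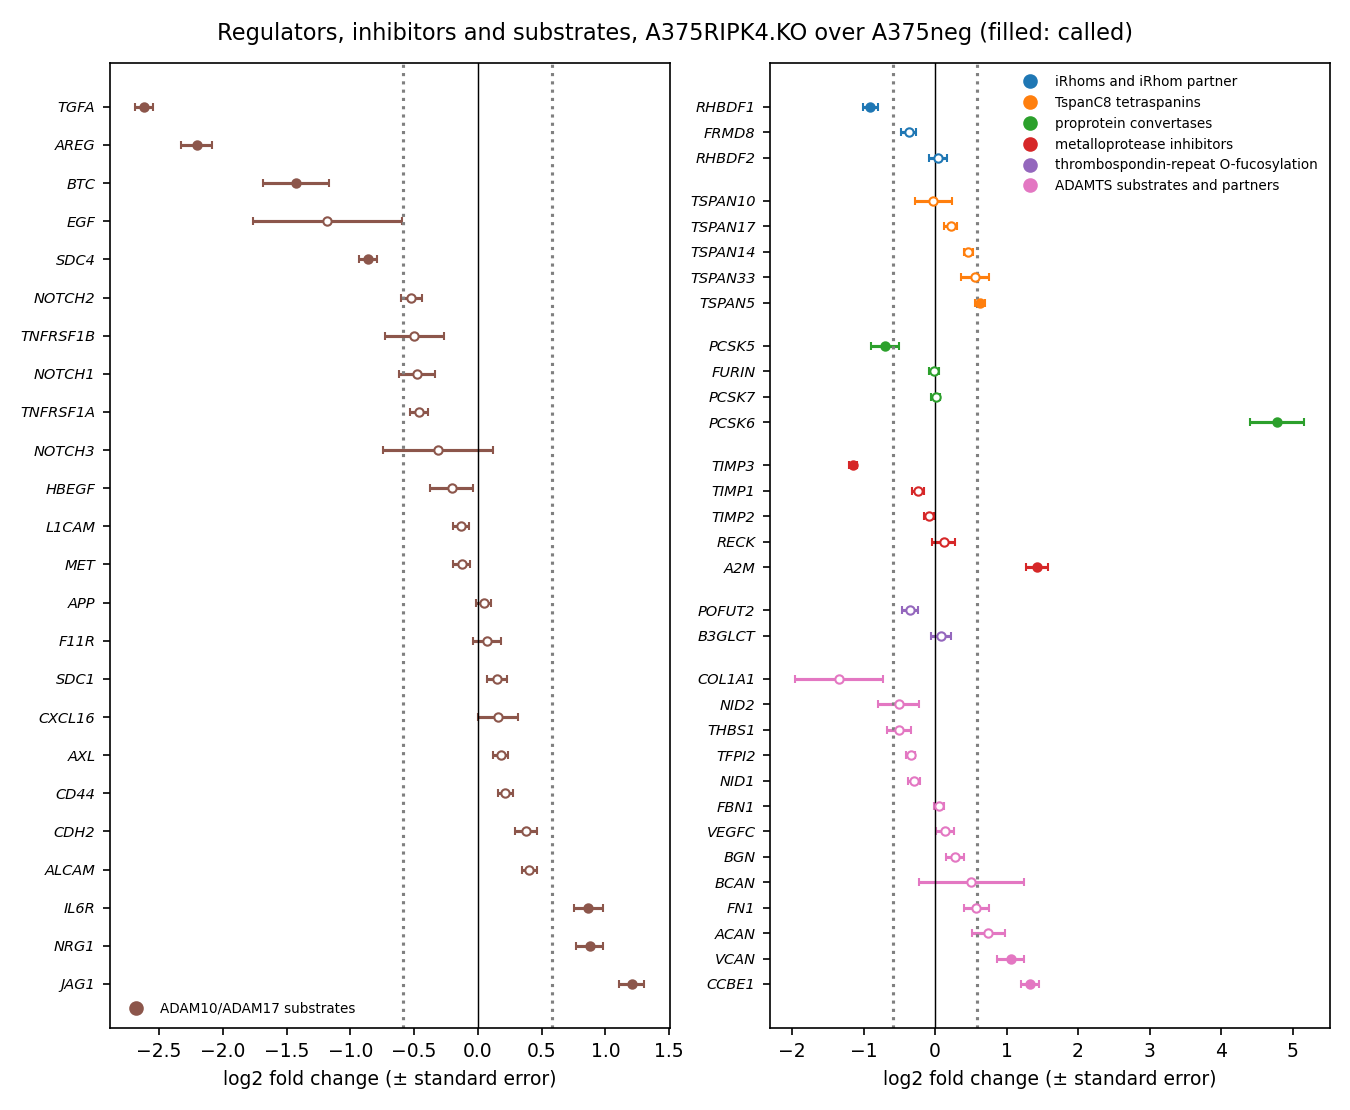
Log2 fold change of A375RIPK4.KO over A375neg (bars ± standard error, filled points called changed, dotted lines at the 1.5-fold limits) for ADAM10 and ADAM17 substrates (left) and for regulators, inhibitors, sugar-adding enzymes and ADAMTS substrates (right). TGFA and AREG lie farthest left among the substrates, JAG1 farthest right, and PCSK6 is the point farthest right of all.

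Of 32 known substrates of ADAM10 and ADAM17, 29 were listed and 24 tested. Against 9.04% of all genes tested that were called, 3 of the 24 rose and 4 fell, with a median log2 fold change of -0.13. Those that fell were TGFA, AREG, BTC and SDC4, the first 3 of which are EGF-receptor ligands. TGFA had 8595, 9771 and 9744 counts in A375neg and 1319, 1323 and 1534 in A375RIPK4.KO (log2 fold change -2.62, SE 0.07, edgeR adjusted p 8.7e-08). AREG had 564, 644 and 652 counts against 101, 126 and 141 (log2 fold change -2.20, SE 0.12, edgeR adjusted p 5.85e-06). BTC had 95, 97 and 89 counts against 37, 21 and 37 (log2 fold change -1.43, SE 0.26, edgeR adjusted p 0.0054). The groups were clear of each other for all 3 ligands. SDC4, a membrane heparan sulphate proteoglycan, had 5775, 6314 and 6619 counts against 2802, 3082 and 3495 (log2 fold change -0.86, SE 0.07, edgeR adjusted p 6.25e-05).

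The other 3 substrates that changed rose. JAG1, a Notch ligand, had 1518, 1437 and 1615 counts in A375neg and 3013, 2855 and 3758 in A375RIPK4.KO (log2 fold change 1.21, SE 0.10, edgeR adjusted p 5.79e-05). NRG1, the neuregulin that ADAM19 is known to cut, had 251, 270 and 273 counts against 440, 405 and 482 (log2 fold change 0.88, SE 0.10, edgeR adjusted p 0.000452). IL6R, the interleukin 6 receptor, had 255, 298 and 289 counts against 508, 429 and 457 (log2 fold change 0.87, SE 0.11, edgeR adjusted p 0.000824). Each rise was seen in every knockout library. Without replicate 3 of A375RIPK4.KO the receptors NOTCH1 (log2 fold change -0.61, edgeR adjusted p 0.029) and NOTCH2 (-0.59, edgeR adjusted p 0.00371) were also called lower. With all libraries they were short of the fold limit (-0.48 and -0.52). In A375RIPK4.KO, NOTCH1 had 964, 709 and 1132 counts and NOTCH2 had 4522, 4012 and 5186. Both were lowest in replicate 2, the library that stood apart in its long genes.

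Of 22 ADAMTS substrates and partners, 19 were listed and 13 tested. Against 9.04% of all genes tested that were called, 2 of the 13 rose and none fell, with a median log2 fold change of 0.14. VCAN, which encodes versican, had 66, 83 and 78 counts in A375neg and 160, 118 and 151 in A375RIPK4.KO (log2 fold change 1.06, SE 0.19, edgeR adjusted p 0.00509). CCBE1, the cofactor of ADAMTS3 in the cleavage of VEGF-C, had 223, 299 and 241 counts against 641, 529 and 568 (log2 fold change 1.33, SE 0.13, edgeR adjusted p 0.00015). FN1, which encodes fibronectin, had 13707, 14614 and 16477 counts against 21701, 14167 and 25042, and the groups overlapped through replicate 2 of A375RIPK4.KO. It missed both limits (1.49-fold, edgeR adjusted p 0.0521) and was called without that library (log2 fold change 0.79, edgeR adjusted p 2.11e-05) and with the correction for gene length (0.61, edgeR adjusted p 0.0091). ACAN, which encodes aggrecan, was at 0.74 (edgeR adjusted p 0.0576) and was called with that correction (edgeR adjusted p 0.0481) and with a minimum mean count of 50 (edgeR adjusted p 0.0446). THBS1, which encodes thrombospondin 1, was at -0.51 (edgeR adjusted p 0.0699) and was called lower without replicate 3 of A375RIPK4.KO (-0.67, edgeR adjusted p 0.0321). It had 35204, 24146 and 42802 counts in A375RIPK4.KO, again lowest in replicate 2. The shedding or cleavage of any of these proteins was not measured here.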

How the data were processed

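RNA from 3 libraries each of A375neg and A375RIPK4.KO cells was poly(A)-enriched, made into strand-specific libraries and sequenced as paired-end reads by an external provider. The authors deposited raw counts per gene, which are the values used here. Per the labels, the submitters' processing notes name cutadapt, FastQC, HISAT2, HTSeq, DESeq2 and GRCh38.p13, and the strand setting is not given in the sources used here. Every listed gene has at least 4 counts in total. The authors' normalised counts and their own comparison (fold changes and p-values) were not used.

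The comparison used the quasi-likelihood test of edgeR 4.0.16 in R 4.3.3 on 14443 genes kept by filterByExpr, with TMM scaling and p-values adjusted by Benjamini-Hochberg. Normalised counts were scaled by the TMM library size over its mean. The SE given with edgeR values was derived from the test, as the absolute log2 fold change over the square root of the F statistic. Changed genes had an adjusted p under 0.05 and a change of at least 1.5-fold. RPKM used GENCODE 29 exon lengths, taken as the union of all annotated exons of a gene. Table positions overlapped the RefSeq gene (GRCh38.p14) for 34 of the 35 genes, the exception being ADAMTS5. Promoters came from RefSeq, and for 19 of 24 the first bases after the start were found in a GENCODE transcript.

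Alternatives were DESeq2 1.42.0, its size factors in edgeR, no low-count filter, a minimum mean count of 50, a replicate block, a gene length correction, other fold limits, each library left out and, added after seeing the data, the copies of a gene summed. On simulated counts with 200 changed genes among 14443, edgeR recovered 62.5% of 2-fold and 91.7% of 4-fold changes with 16 false calls. Figures were drawn with matplotlib 3.10.9.

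Members were chosen by name, and the members and lists were chosen with earlier results of these data known. Counts in every library are given for members that were called or passed the adjusted p, for ADAM10 and ADAM17, for the 3 most abundant members of each class by RPKM and for members at no more than 3 counts in each library of 1 group and more in the other. In lists, the genes called changed are given. Other genes were named after their values were seen.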

Additional observations from a re-analysis of the deposited data

How the results depend on the processing

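The number of members called changed was 8 (3 higher, 5 lower) with DESeq2, with its size factors, without the low-count filter, with the copies of a gene summed, with the gene length correction and with the replicate block. It was 6 with a minimum mean count of 50, 12 with no fold limit, 6 with a limit of 2-fold, and 6 to 8 with single libraries left out. The minimum mean count removed ADAM8 and ADAMTS8 before the test. ADAM genes gave 2 to 4 calls with single libraries left out, the lowest without replicate 3 of A375RIPK4.KO and without replicate 1 or 2 of A375neg, where ADAM8 and ADAM11 were lost. With no fold limit the calls were 5 for ADAMTS genes, 2 for the iRhom list, 2 for TspanC8 tetraspanins, 13 for ADAM10 and ADAM17 substrates, 4 for ADAMTS substrates and 2403 for all genes. With a limit of 2-fold they were 0 for the iRhom list, 0 for TspanC8 tetraspanins, 1 for proprotein convertases, 4 for ADAM10 and ADAM17 substrates and 793 for all genes. Proprotein convertases gave 1 call with the minimum mean of 50, where PCSK6 was not tested. They gave 1 without the filter and 1 to 2 with single libraries left out. TspanC8 tetraspanins gave 1 to 2, with 2 without replicate 3 of A375neg, where TSPAN33 was added. ADAMTS substrates gave 4 calls with the gene length correction and 2 to 3 with single libraries left out. All genes gave 963 with the minimum mean of 50, 1353 with DESeq2 and 1059 to 1336 with single libraries left out.

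Among the members tested, the sign turned under these alternatives for ADAM22 and ADAMTSL1, neither of which was called. ADAM22 was at 0.0094 with the gene length correction and ranged from -0.0795 to 0.0446 with single libraries left out (above 0 without replicate 3 of A375neg). ADAMTSL1 was at 0.0154 with the gene length correction and ranged from -0.133 to 0.0879 with single libraries left out (0.07 without replicate 2 of A375RIPK4.KO). The cause was not tested.

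The labels give both groups replicate numbers 1 to 3. Deviations from the group means correlated between same-numbered libraries at 0.137, 0.0307 and -0.0077 over 11685 genes, and not every library correlated best with its own number, so the numbers were not taken as pairs. With the replicate block, 8 members and 1266 genes in all were called, and RIPK4 was at -2.69. Over the tested members and the called genes of the lists, and with the fold limit at 1.5, 505 values kept their direction and side of the threshold, 13 lost their call, 1 gained one and 5 turned sign. Of the same 41 genes, 8 lost their call at 2-fold and 4 gained one with no fold limit. A gene removed by a filter gave no value in that fit. List genes not called were outside the 41, and of these TSPAN33, NOTCH1, NOTCH2, ACAN, FN1 and THBS1 gained a call in some fits. At this depth the 9 members with the fewest counts were not tested, and not all 2-fold changes were recovered on simulated counts.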

Other observations

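Further entries of the table carry names close to those of the family and were not counted as members. ADAMTSL4-AS2 had 6, 8 and 0 counts in A375neg and 6, 0 and 5 in A375RIPK4.KO. The pseudogene ADAM20P1 had 2, 5 and 0 against 2, 0 and 8. A second entry for ADAMTS12 had 31, 1 and 0 counts against 7, 0 and 3, and one for ADAM32 had 0, 0 and 1 against 0, 0 and 5. In the count of ADAMTS12, the 31 counts of the second entry in replicate 1 of A375neg stand against 905 in the main entry.

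Some members lie close together but differ in level. ADAM9 and ADAM32 are 2.267 kb apart on chromosome 8, and the first had at least 2064 counts in each library while the main entry of the second had at most 2. ADAMTS1 and ADAMTS5 are 72.512 kb apart on chromosome 21, and the second had at most 2 counts in any library.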
